A study of Mus musculus with 12 samples.

Results

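Cerebellins, neurexins and delta glutamate receptors form adhesion complexes that span the synaptic cleft, and 6 of their genes were read in ribosome-bound RNA of mouse midbrain dopaminergic neurons. The 6 genes, Cbln1, Cbln2, Cbln4, Nrxn2, Nrxn3 and Grid1, were taken by symbol from a table of 23079 genes, and all 6 were among the 15685 genes with enough counts to be tested. They were picked with the region differences of the same libraries already known. Their differences between regions are therefore given as a description with no test.

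RNA came from dopaminergic neurons of the substantia nigra pars compacta (SNpc) and of the ventral tegmental area (VTA) of C57BL/6 mice, with 5 distinct libraries per region. The labels call the samples TRAP, taken here to mean translating ribosome affinity purification, a method by which tagged ribosomes of a chosen cell type are pulled down with their RNA. The transgene, the promoter that drives it, the age and sex of the mice and the number of animals per library are not stated in the labels, and with no statement that libraries came from separate animals their spread may be technical. The deposited columns SNpc 4 and SNpc 5 were identical in every count, and so were VTA 2 and VTA 3. Each pair differed by less than the sampling noise and was counted as 1 sample, named SNpc library 4 and VTA library 2.

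A cerebellin is a small secreted protein of the C1q family. Cbln1 binds a neurexin on the presynaptic membrane on one side and a delta glutamate receptor on the postsynaptic membrane on the other. It so holds the synapse together, as worked out at the parallel fibre synapses of the mouse cerebellum. Neurexins are made as long alpha and short beta forms from separate start sites, and cerebellins bind those forms that carry one particular alternatively spliced insert. Delta receptors resemble ionotropic glutamate receptors but work mainly as adhesion and signalling proteins. Counts per gene, as used here, tell neither the alpha from the beta forms nor the presence of the insert.

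Total counts ran from 62356964 to 81393907 per library. The 8 dopaminergic markers (Th, Slc6a3, Slc18a2, Ddc, Pitx3, Nr4a2, En1 and Foxa1) were present in every library at a summed 9661 to 14060 CPM (counts scaled to a common library size by trimmed mean of M values) in SNpc and 4927 to 8074 CPM in VTA, and all 8 were called higher in SNpc. Glutamatergic markers (Slc17a6, Slc17a7, Slc17a8) summed to 18.6 to 87.7 CPM in SNpc and 93.2 to 131 in VTA, with 2 of 3 called higher in VTA, and astrocyte markers to 258 to 447 CPM in SNpc and 439 to 589 in VTA, with 2 of 7 called higher in VTA. Of all tested genes 17.8% were called higher in SNpc and 20.4% higher in VTA. SNpc library 4 stood apart from the other SNpc libraries. Its oligodendrocyte markers summed to 1243 CPM, against 254 to 463 in the other 4, its GABAergic markers to 314 against 84.8 to 139, and its glutamatergic markers to 87.7 against 18.6 to 37.1. VTA library 1 held 52.4 CPM of endothelial markers, against 0.645 to 4.26 in the other VTA libraries. In such bulk RNA, fewer cells of a type and less RNA per cell cannot be told apart. How RNA of other cell types came into these pull-downs was not tested, so the marker sums are not read as cell composition.

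Over all 10 libraries Cbln4 had the largest difference of the 6 genes, while without SNpc library 4 that of Cbln2 was larger, at -2.70 against -2.35 for Cbln4 (log2 fold change). Its locus is on mouse chromosome 2 (Entrez 228942, build mm10, 172036336 to 172043466, minus strand), and GENCODE lists 1 coding transcript for it. The 250 bases upstream of its annotated start (RefSeq, GRCm38.p6, chr2:172043467-172043716, minus strand) are shown because Cbln4 differed most over all 10 libraries. Of the member genes, Cbln4 and Nrxn3 had entries in the promoter table. Capitals mark the letters of a CCAAT box on the opposite strand.
Cbln4 upstream: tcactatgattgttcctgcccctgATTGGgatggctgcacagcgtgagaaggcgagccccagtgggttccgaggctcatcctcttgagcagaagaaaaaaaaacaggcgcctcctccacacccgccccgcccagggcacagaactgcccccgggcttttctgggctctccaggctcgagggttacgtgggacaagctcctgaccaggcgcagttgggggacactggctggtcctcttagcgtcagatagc
The marked CCAAT letters begin 226 bases before the start and occur, on either strand, in 33.8% of 32851 annotated upstream windows of the same length. TATAAA, present in 12.4% of windows, the Otx-type homeobox letters TAATCC, in 6.25%, and the Nr4a-type letters AAGGTCA, in 4.08%, were searched on both strands and had no match in this window. The window holds 11 CpG pairs, against a median of 6 over all windows.

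The 5 SNpc libraries read Cbln4 at 17.7, 17.9, 15.3, 23.9 and 16.4 CPM (libraries 1, 2, 3, 4 and 6), and the VTA libraries at 85.2, 100.7, 102, 63.9 and 94.5 CPM (libraries 1, 2, 4, 5 and 6). The lowest VTA library thus lay above the highest SNpc library, which was library 4. The mean was 18.2 ± 3.34 CPM in SNpc and 89.3 ± 15.7 CPM in VTA (SD, n = 5 each), a log2 fold change, SNpc minus VTA, of -2.29 ± 0.15 (SE), or 4.89-fold higher in VTA. Of the glial markers, 2 of 7 for astrocytes and 0 of 6 for oligodendrocytes were called higher in VTA. So were 2 of 3 for oligodendrocyte precursors and 1 of 5 for microglia. Of all tested genes 20.4% were called higher in VTA, and whether the glial markers depart from this share was not tested. With region means subtracted, Pearson's r of Cbln4 over 10 libraries was 0.76 with astrocyte, 0.58 with glutamatergic and 0.54 with oligodendrocyte markers. It was 0.50 with microglia, 0.48 with GABAergic, 0.39 with cholinergic and 0.25 with endothelial markers. For oligodendrocyte precursors it was 0.21, for serotonergic neurons 0.16 and for dopaminergic neurons -0.45. The part of such cells in the level of Cbln4 was not tested beyond covariate fits. With the mean of glial markers (astrocyte, oligodendrocyte and microglia) as a covariate the log2 fold change was -2.14, and with that of glutamatergic and GABAergic markers it was -2.08.

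**Figure D1:**
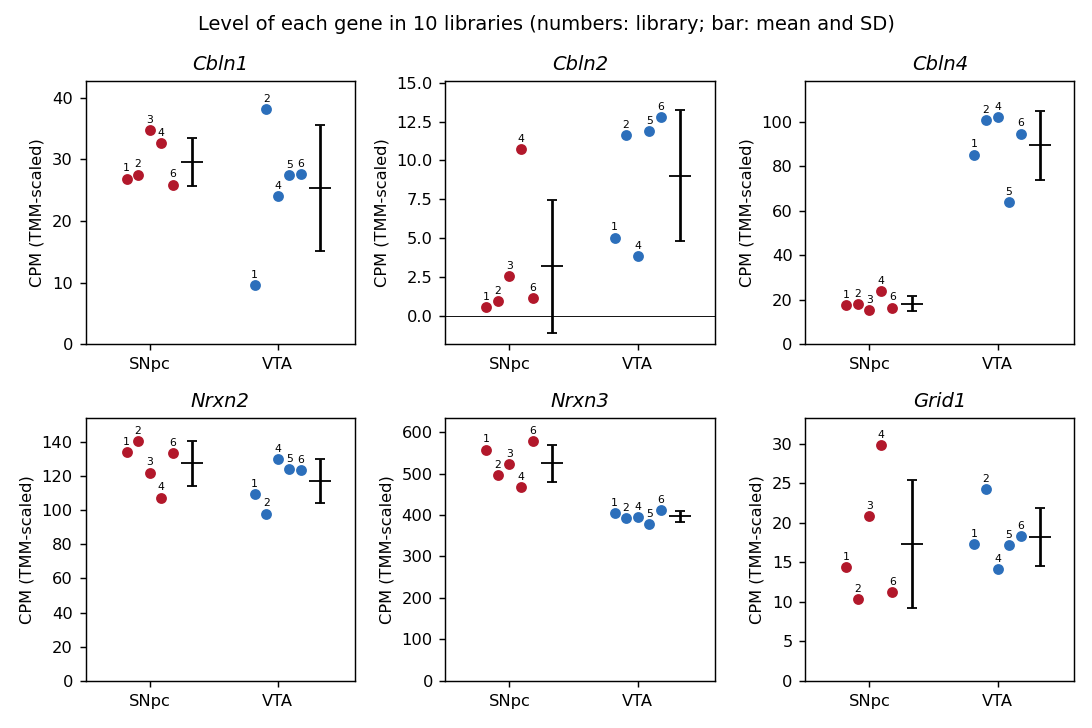
CPM (vertical axis, scaled by trimmed mean of M values, starting at or below 0) of each gene in the 5 SNpc and the 5 VTA libraries, 1 point per library with its number, and a bar for the mean and SD. Cbln4 and Nrxn3 separate the regions in opposite directions, and SNpc library 4 lies with the VTA libraries for Cbln2.

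Cbln1, the founding cerebellin (Entrez 12404, chromosome 8, 87468853 to 87472592, minus strand), was read at 26.9, 27.5, 34.8, 32.7 and 25.9 CPM in SNpc libraries 1, 2, 3, 4 and 6. In the VTA, libraries 1, 2, 4, 5 and 6 in turn, it was 9.58, 38.1, 24.0, 27.5 and 27.6 CPM. The regions overlapped, with VTA holding both the lowest and the highest library. Means were 29.5 ± 3.93 CPM in SNpc and 25.3 ± 10.3 CPM in VTA (SD, n = 5 each), a log2 fold change of 0.22 ± 0.26 (SE). The low value was that of VTA library 1, and without this library the log2 fold change was 0.01. The coefficient of variation of Cbln1 was 13.3% in SNpc and 40.6% in VTA.

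Cbln2, which like Cbln1 binds neurexins (Entrez 12405, chromosome 18, 86711061 to 86718283, plus strand), was the least abundant of the 3. SNpc libraries 1, 2, 3 and 6 held 0.573, 0.962, 2.58 and 1.17 CPM, whereas SNpc library 4 held 10.8 CPM, from 706 reads. VTA libraries 1, 2, 4, 5 and 6 held 5.04, 11.7, 3.85, 11.9 and 12.8 CPM. Library 4 thus lay among the VTA libraries and 8.14-fold above the mean of the other SNpc libraries. The log2 fold change of -1.49 ± 0.76 (SE) over all 10 libraries (3.21 ± 4.28 CPM in SNpc and 9.04 ± 4.23 CPM in VTA, SD, n = 5 each) became -2.70 without library 4. The other 4 SNpc libraries averaged 1.32 ± 0.876 CPM (SD, n = 4) and all lay below the lowest VTA library.

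Cbln2 was set beside the summed markers of 10 cell types. After each region's mean was subtracted, Pearson's r of log2 Cbln2 with the summed glutamatergic markers was 0.84, with the oligodendrocyte markers 0.78 and with the GABAergic markers 0.78, over 10 libraries that include SNpc library 4. With microglia it was 0.53, with oligodendrocyte precursors 0.51 and with astrocytes 0.43. With endothelium it was -0.017, with cholinergic neurons -0.20, with serotonergic neurons -0.30 and with dopaminergic neurons -0.51. These are descriptions across libraries that are not stated to come from separate animals. The part of such cells in the level of Cbln2 was not tested beyond the covariate fits. There the log2 fold change was -1.44 with glial markers and -0.75 with glutamatergic and GABAergic markers. Slc17a6, the most widely used glutamatergic marker, is also known from some VTA dopaminergic neurons.

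**Figure D2:**
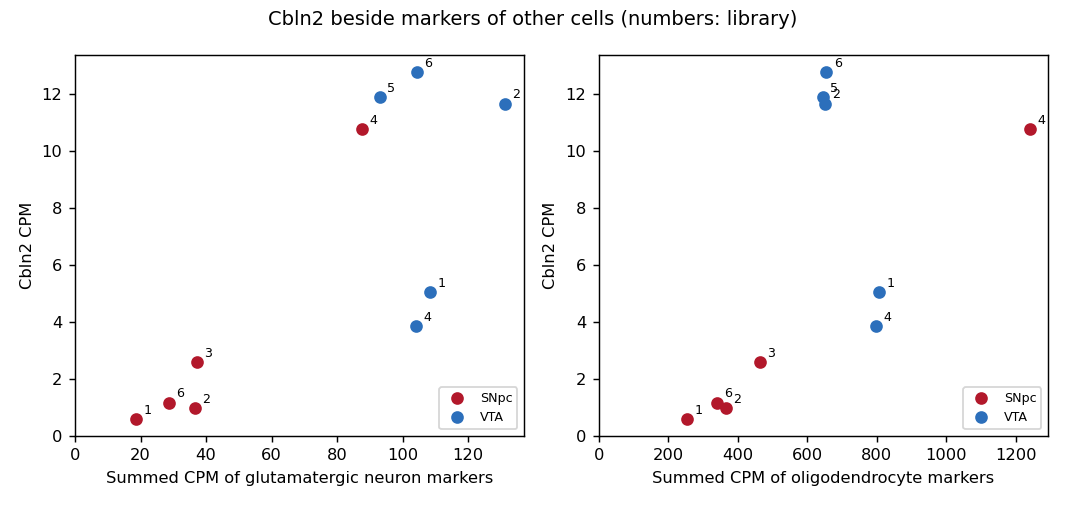
Cbln2 CPM (vertical axes) against the summed CPM of 3 glutamatergic neuron markers (left) and of 6 oligodendrocyte markers (right), 1 point per library with its number. SNpc library 4, at 10.8 CPM of Cbln2, has the highest marker sum of its region on both axes.

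The make-up of the cerebellin counts differed between the regions. Cbln4 made up 39.2%, 38.7%, 29.0%, 35.5% and 37.8% of the Cbln1, Cbln2 and Cbln4 counts in SNpc libraries 1, 2, 3, 4 and 6. In the VTA, libraries 1, 2, 4, 5 and 6 in turn, that share was 85.3%, 66.9%, 78.6%, 61.9% and 70.1%. Cbln1 held the largest share in every SNpc library, with 58.6% ± 6.32, against 20.1% ± 6.76 in VTA (SD, n = 5 each). There were 0.439 to 0.732 reads of Cbln4 per read of Cbln1 in SNpc and 2.33 to 8.89 in VTA, a ratio that does not depend on how libraries were scaled. Read per kilobase of exon, Cbln4 held 37.0% ± 4.26 in SNpc but 73.2% ± 9.23 in VTA (SD, n = 5 each). For Cbln1, Cbln2 and Cbln4 no 50-base word of the longest coding transcript was shared with any other annotated gene.

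**Figure D3:**
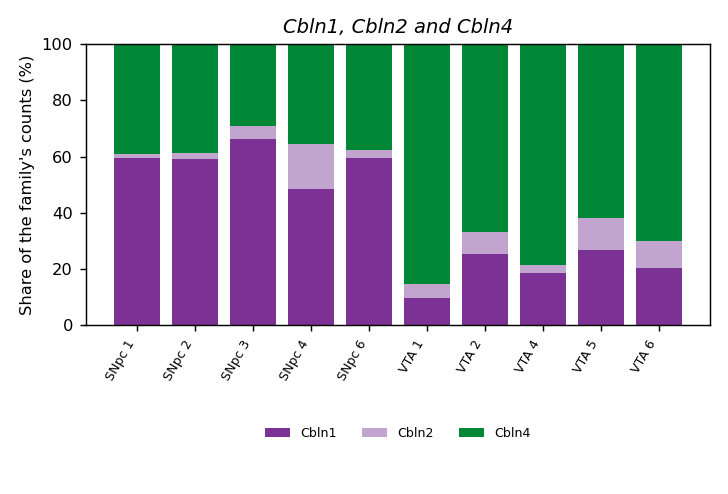
Share of the counts of Cbln1, Cbln2 and Cbln4 (percent, vertical axis) held by each gene in each library, stacked to the sum of the 3. Cbln4 holds 29.0% to 39.2% in SNpc libraries and 61.9% to 85.3% in VTA libraries.

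Nrxn3 (Entrez 18191, chromosome 12, 88722701 to 90334935, plus strand) was read at 557, 497, 522, 466 and 578 CPM in SNpc libraries 1, 2, 3, 4 and 6. In the VTA, libraries 1, 2, 4, 5 and 6 in turn, it was 405, 392, 395, 379 and 412 CPM. Every SNpc library lay above every VTA library, with SNpc library 4 the lowest of its region. Means were 524 ± 44.9 CPM in SNpc and 397 ± 12.8 CPM in VTA (SD, n = 5 each), a log2 fold change of 0.40 ± 0.08 (SE), or 1.32-fold. At 25034 to 35702 reads per library this was the most deeply read of the 6 genes.

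Nrxn2 (Entrez 18190, chromosome 19, 6418756 to 6533217, plus strand) held 134, 141, 122, 107 and 133 CPM in SNpc libraries 1, 2, 3, 4 and 6. In the VTA, libraries 1, 2, 4, 5 and 6 in turn, it held 110, 98.0, 130, 124 and 124 CPM. The regions overlapped. Means were 127 ± 13.1 CPM in SNpc and 117 ± 13.0 CPM in VTA (SD, n = 5 each), a log2 fold change of 0.12 ± 0.10 (SE). In both neurexins SNpc library 4 was the lowest SNpc library. Across libraries, with region means subtracted, Nrxn2 had a Pearson r of 0.92 with the summed dopaminergic markers (10 libraries), and Nrxn3 one of 0.45. Nrxn2 had -0.77 with GABAergic, -0.74 with oligodendrocyte precursor, -0.68 with glutamatergic and -0.59 with oligodendrocyte markers. It had -0.54 with astrocyte, microglia and endothelial markers, 0.33 with serotonergic and 0.32 with cholinergic ones. Nrxn3 had -0.77 with glutamatergic, -0.73 with oligodendrocyte, -0.64 with GABAergic, -0.38 with microglia and -0.36 with astrocyte markers. Its other values lay between -0.155 and 0.032.

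Both neurexins have long transcripts. When genes of known length were split into 5 equal bins, the median log2 fold change was -0.48 in the bin of longest transcripts, 5359 bases or more, against 0.38 in that of shortest. Nrxn2, Nrxn3 and Grid1, whose longest coding transcripts measure 6667, 7922 and 5720 bases, belong to the bin of longest transcripts, while Cbln1 and Cbln2 belong to the bin next to the shortest and Cbln4 to the middle one. Removing the trend of each library on length and GC content gave log2 fold changes of 0.88 for Nrxn3, 0.70 for Nrxn2 and 0.27 for Grid1. That of Cbln4 was -2.36. The neurexins' differences thus depended on whether this joint trend was removed, with the same sign, and the sign for Grid1 turned. Length and GC content were removed together, so the part of each was not tested.

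**Figure D4:**
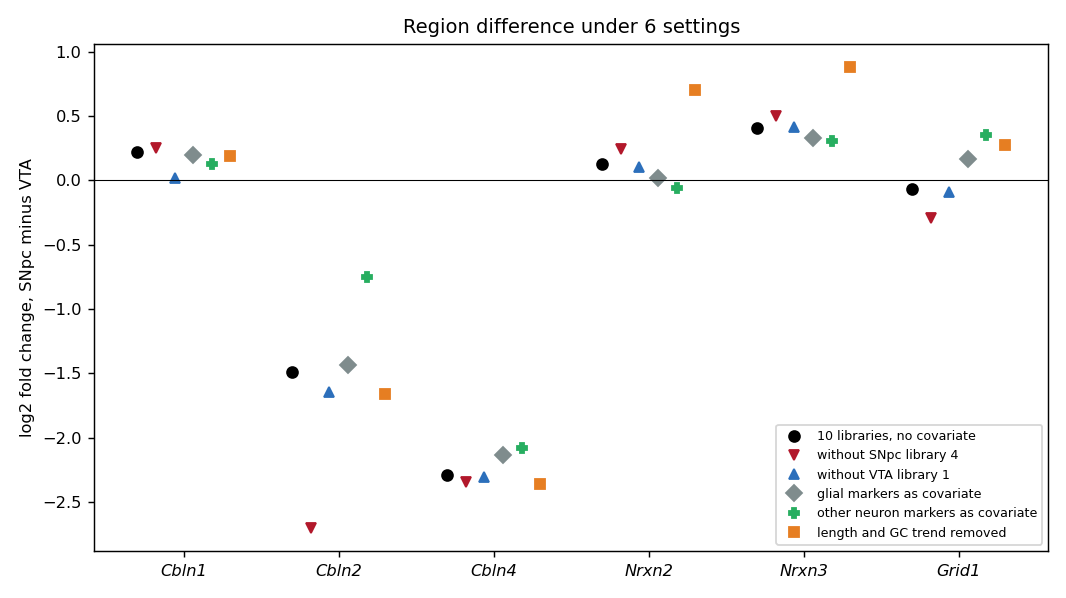
Log2 fold change, SNpc minus VTA (vertical axis), of the 6 genes under 6 settings, each with its own symbol. Cbln4 stays between -2.36 and -2.08, Cbln2 spreads from -2.70 to -0.75, and the neurexins are highest once the trend on length and GC content is removed.

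Between these neurexins there were 3.54 to 4.35 reads of Nrxn3 per read of Nrxn2 in SNpc and 3.04 to 4.0 in VTA, with overlapping ranges. The exons of both genes overlap exons of other genes on the opposite strand, for Nrxn2 among them Slc22a12, so without a stated strand setting some of their reads may belong to those genes.

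Grid1, the delta receptor reported in midbrain dopaminergic neurons and widely in the forebrain (Entrez 14803, chromosome 14, 34820003 to 35583387, plus strand), was read at 14.4, 10.4, 20.9, 29.8 and 11.3 CPM in SNpc libraries 1, 2, 3, 4 and 6. VTA libraries 1, 2, 4, 5 and 6 held 17.3, 24.2, 14.2, 17.1 and 18.4 CPM. The VTA libraries lay inside the SNpc range, whose top was again library 4. Means were 17.3 ± 8.09 CPM in SNpc and 18.2 ± 3.69 CPM in VTA (SD, n = 5 each), a log2 fold change of -0.07 ± 0.26 (SE), and -0.29 without SNpc library 4. With region means subtracted, Grid1 had Pearson r values of 0.71 with the GABAergic, 0.70 with the glutamatergic and 0.70 with the oligodendrocyte markers over 10 libraries, and of -0.64 with the dopaminergic markers.

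Over the 6 genes, 1 passed the all-gene threshold on the SNpc side (Nrxn3) and 1 on the VTA side (Cbln4), where 17.8% and 20.4% of all tested genes did. CPM ranges of the regions did not overlap for the same pair of genes, and for 26.6% of all tested genes. Since the genes were chosen with this contrast known, nothing is read from these counts. Without SNpc library 4, and with glial markers as a covariate, Cbln2 was also past the threshold. In these settings 20.1% and 17% of all genes were called higher in VTA. With glutamatergic and GABAergic markers as a covariate Nrxn3 was not past it, at a log2 fold change of 0.30, where 4.67% were called higher in SNpc. With the length and GC trend removed Nrxn2 passed as well, at 0.70, where 13.8% were called higher in SNpc. Nothing is read from these passes either. The median log2 fold change of the 6 was 0.03, against -0.04 over all genes tested.

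Levels were compared between genes as CPM per kilobase of exon, counting all annotated exons. In SNpc, Nrxn3 came first with 41.6 ± 3.56, followed by Cbln1 with 9.73 ± 1.30, Nrxn2 with 9.23 ± 0.947, Cbln4 with 6.29 ± 1.15, Grid1 with 2.91 ± 1.36 and Cbln2 with 1.11 ± 1.48 (SD, n = 5 each). Cbln1 and Nrxn2 did not differ beyond their spread, meaning by more than the larger of their SDs, while the other neighbours did. In SNpc library 4, however, Cbln4 lay above Nrxn2, at 8.24 against 7.77. In VTA, Nrxn3 with 31.5 ± 1.01 and Cbln4 with 30.8 ± 5.40 did not differ beyond their spread, nor did Nrxn2 with 8.48 ± 0.944 and Cbln1 with 8.34 ± 3.38, nor Cbln2 with 3.12 ± 1.46 and Grid1 with 3.06 ± 0.619 (SD, n = 5 each). By mean level Cbln4 thus stood below Cbln1 and Nrxn2 in SNpc and beside Nrxn3 in VTA. With the longest coding transcript as the length, Nrxn2 lay above Cbln1 in all 5 libraries of each region and Nrxn3 above Cbln4 in all 5 VTA libraries, so the places of the neurexins depend on the length chosen.

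The related genes were grouped by role, from lists written with general knowledge of these complexes. Of 32 tested, 5 were called higher in SNpc and 6 higher in VTA (edgeR quasi-likelihood test, adjusted p under 0.05 over all genes). These shares were close to those of all genes, 17.8% and 20.4%. Their median log2 fold change was -0.10, against -0.04 over all genes. With glutamatergic and GABAergic markers as a covariate 1 was called higher in SNpc and 3 higher in VTA, and the calls of C1ql1, Nxph1, Clstn3, Mdga1, Apba1, Lin7b and Khdrbs1 ended, where 4.67% and 9.89% of all genes were called. With the length and GC trend removed the numbers were 13 and 4, where 13.8% and 16.5% of all genes were called. Cbln3, a cerebellin known from cerebellar granule cells, was near the detection limit at 1.12 ± 1.17 CPM in SNpc and 0.759 ± 1.59 CPM in VTA (SD, n = 5 each), with 3.60 CPM in VTA library 1 against 0.0301 to 0.0880 in the other VTA libraries, and was not called (edgeR adjusted p = 0.767). Without VTA library 1 it was called higher in SNpc, at a fitted log2 fold change of 4.48 (edgeR adjusted p = 0.00644), with 2 to 6 reads in each of the remaining VTA libraries. Exons of Nlgn1, Nlgn3, Mdga2, Lphn1, Apba1, Lin7b, Grid2ip, Sorcs1 and C1ql3 overlap other annotated genes, so their counts are uncertain. Among the 6 genes this holds for Grid1, Nrxn2 and Nrxn3.

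Among the C1q-like ligands, secreted relatives of the cerebellins, and their receptor Bai3 (now Adgrb3), 0 of 4 tested genes were called higher in SNpc and 1 higher in VTA, with a median log2 fold change of -0.52. C1ql1, which binds Bai3 at climbing fibre synapses, was 1.85 ± 1.51 CPM in SNpc and 7.42 ± 3.22 CPM in VTA (SD, n = 5 each), a log2 fold change of -2.0 ± 0.46 with its SE (edgeR adjusted p = 0.00264). Its SNpc library 4 held 4.54 CPM, against 0.841 to 1.34 in the other SNpc libraries. Bai3 itself was the most abundant, at 66.8 ± 12.1 CPM in SNpc and 71.8 ± 10.3 CPM in VTA, and was not called (edgeR adjusted p = 0.569).

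The neuroligins, postsynaptic receptors that compete with the cerebellin complexes for neurexins, gave 0 calls among 3 genes in edgeR, with 0 at an unadjusted p under 0.05 and 0 in DESeq2. Their log2 fold changes were -0.12 ± 0.11 for Nlgn1, -0.15 ± 0.11 for Nlgn2 and -0.10 ± 0.10 for Nlgn3 (SE). All 3 turned to the SNpc side and passed the threshold once the length and GC trend was removed, at 0.46, 0.29 and 0.45.

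Of 10 other extracellular partners, 2 were called higher in SNpc and 5 higher in VTA, with a median of -0.50. Over all tested genes 17.8% and 20.4% were called, and whether this list departs from those shares was not tested. Neurexophilins are secreted ligands of alpha-neurexins. Nxph3 was 3.66 ± 1.30 CPM in SNpc and 17.3 ± 5.71 CPM in VTA (SD, n = 5 each), a log2 fold change of -2.24 ± 0.29 with its SE (edgeR adjusted p = 1.54e-05), with no overlap of the regions. Nxph1 had a log2 fold change of -1.0 (edgeR adjusted p = 0.00670), with SNpc library 4 at 33.9 CPM against 12.6 to 17.0 in the other SNpc libraries. Mdga1 and Mdga2, membrane-anchored proteins that keep neuroligins from neurexins, had log2 fold changes of -1.21 and -0.96 (edgeR adjusted p = 0.00114 and 8.37e-05), of which that of Mdga1 no longer passed once the length and GC trend was removed (-0.59, edgeR adjusted p = 0.0755).

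Of the 3 calsyntenins, postsynaptic cadherin-type proteins of which Clstn3 is reported to bind neurexins, Clstn2 and Clstn3 were called higher in SNpc, and Clstn1 was not called (log2 fold change 0.11, edgeR adjusted p = 0.397). Clstn2 was 355 ± 45.7 CPM in SNpc and 211 ± 11.2 CPM in VTA (SD, n = 5 each), a log2 fold change of 0.75 ± 0.10 with its SE (edgeR adjusted p = 1.65e-05), with no overlap. Clstn3 had a log2 fold change of 0.32 (edgeR adjusted p = 0.0254), a call that leaving out a single library ended, be it SNpc library 3 or 6 or VTA library 2 or 5 (edgeR adjusted p = 0.0544, 0.0632, 0.0601 and 0.0709). The latrophilin Lphn1 (now Adgrl1), a neurexin-binding adhesion receptor, was the most abundant of the list at 419 ± 22.6 CPM in SNpc and 516 ± 45.9 CPM in VTA (SD, n = 5 each), a log2 fold change of -0.30 (edgeR adjusted p = 0.00977) that turned to 0.32 once the length and GC trend was removed and did not pass without SNpc library 4 (edgeR adjusted p = 0.0576). Of these calls, those of Nxph3, Mdga2 and Clstn2 held in all 22 alternatives.

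Of 7 intracellular partners, 2 were called higher in SNpc and 0 higher in VTA by edgeR, with a median of 0.10. Grid2ip was on the VTA side at an edgeR unadjusted p of 0.0422, and was called there without SNpc library 4 or without VTA library 1. Apba2 was on the SNpc side at 0.26 (edgeR unadjusted p = 0.0199, adjusted p = 0.0516), and was called there in 8 of 22 alternatives. Apba1 (Mint1), an adaptor that binds neurexin tails, was the most abundant at 1136 ± 152 CPM in SNpc and 816 ± 76.3 CPM in VTA (SD, n = 5 each), a log2 fold change of 0.48 ± 0.10 with its SE (edgeR adjusted p = 0.00138). Lin7b, a partner of Cask and Mint proteins, had 0.42 (edgeR adjusted p = 0.0195), a call that ended once the length and GC trend was removed and also when SNpc library 2, VTA library 2 or VTA library 5 was left out (edgeR adjusted p = 0.0609, 0.0503 and 0.0510). Of 5 genes for sorting, shedding and splicing of neurexins, 1 was called higher in SNpc, 0 were in VTA, and the median was -0.02. Sorcs1 was on the VTA side at -1.19 (edgeR unadjusted p = 0.0494). It was called there without SNpc library 4, at -1.96, and with the replicate block, at -1.99. The called gene was Khdrbs1 (Sam68), a splicing regulator of neurexin transcripts. It was at 85.0 ± 5.22 CPM in SNpc and 62.8 ± 8.35 CPM in VTA (SD, n = 5 each), a log2 fold change of 0.44 (edgeR adjusted p = 0.00409). Dcc and Neo1, reported as further receptors of Cbln4, were at 96.7 ± 10.5 and 110 ± 18.7 CPM in SNpc and at 92.0 ± 4.63 and 91.5 ± 16.0 in VTA, and neither was called (edgeR adjusted p = 0.600 and 0.127, unadjusted p = 0.476 and 0.0620). Their median log2 fold change was 0.17. Both passed on the SNpc side once the length and GC trend was removed, at 0.58 and 0.73, and Neo1 also did without SNpc library 4 or without VTA library 6 (edgeR adjusted p = 0.0301 and 0.0447).

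**Figure D5:**
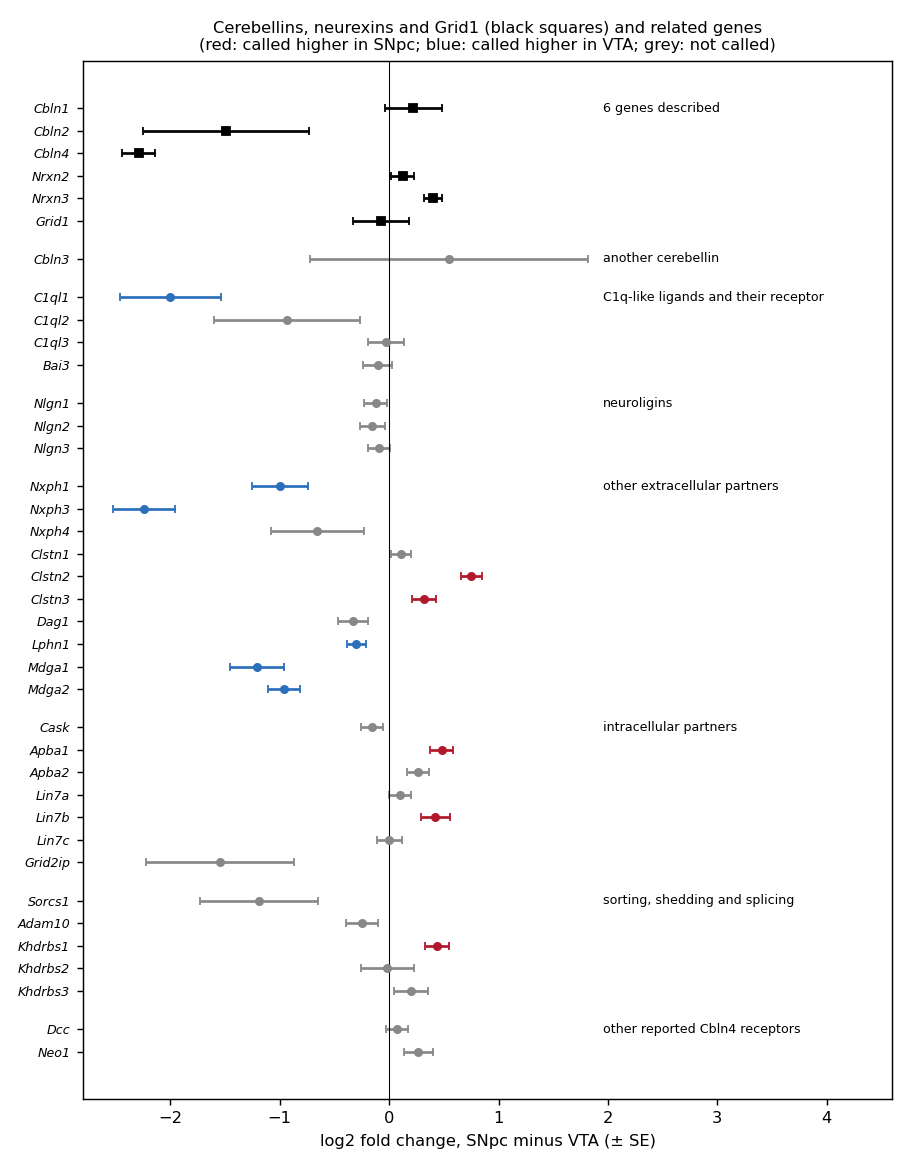
Log2 fold change, SNpc minus VTA (horizontal axis, with SE), of the 6 genes (black squares) and of 32 related genes by role. Called genes are red where higher in SNpc and blue where higher in VTA. Cbln4 and Nxph3 lie furthest on the VTA side and Clstn2 furthest on the SNpc side among called genes.

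Genes whose profile was most like that of each of the 6 were sought among 9429 genes by Pearson's r of log2 CPM over the 10 libraries. Nrxn3 was most like Clstn2, with r = 0.995, followed by Tubb3 (0.987) and Kcnj6 (0.983), and Clstn2 also came first after region means were subtracted (0.978). Cbln4 was most like Map4k3 (0.983), Mxd1 (0.982) and Llgl1 (0.982), and after subtraction of region means most like Fbxl4 (0.903), Pcdh15 (0.888) and Ccdc136 (0.885). For Cbln2 these were Pitpnc1 (0.961), Hlf (0.957) and Gabrb2 (0.956), and Wee1 (0.947), Pitpnc1 (0.929) and Hlf (0.924) after subtraction. Values as measured hold the region difference itself, and all are the highest of many.

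For Cbln1, Nrxn2 and Grid1 the highest values came after subtraction of region means. Cbln1 was most like Gabra4, H2-T23 and Mul1 (0.897, 0.897 and 0.894) and, after subtraction, Hrh3 (0.976), Coq7 (0.961) and Cacna1g (0.938). Nrxn2 was most like Pnpla6 (0.940), Rbm11 (0.929) and Tspan17 (0.920) and, after subtraction, Tecr (0.976), Chrna4 (0.965) and Ube2d3 (0.963). Grid1 was most like Irak1bp1 (0.878), Phka1 (0.873) and Zfp187 (0.868) and, after subtraction, Arhgef10 (0.957), Plxdc2 (0.953) and Usp54 (0.952).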

How the data were processed

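Reads had been aligned with TopHat2 2.0.8 to mm10, per the submitters' processing notes, and deposited as raw counts of reads per gene for 23079 genes. The counting program, annotation and strand setting are not stated in those notes. Per the labels' protocols, cDNA was amplified from a very small RNA input with a kit that does not mark strand. Of 12 columns, 10 distinct libraries were used. Columns without a sample numbered 0.

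The members and lists were chosen with earlier results of these data known. Some related genes of the lists are not reported here. Tests used edgeR 4.0.16 under R 4.3.3 (filterByExpr, TMM scaling, robust quasi-likelihood F test, Benjamini-Hochberg adjustment, threshold 0.05), SNpc minus VTA, with no covariate. CPM are TMM-scaled, and log2 CPM used a prior count of 2. Lengths and GC content came from GENCODE M21 and coordinates from RefSeq, both GRCm38. Length and GC trends were fitted per library with splines of 5 degrees of freedom and removed as offsets. The named genes are the members, from each list up to 4 called genes with the largest change and the most abundant gene, and 3 genes most like each member above a mean log2 CPM of 3. DESeq2 1.42.0, other scalings, left-out libraries, covariates and a replicate block were alternatives. The fits were tested on simulated data.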

Additional observations from a re-analysis of the deposited data

Results flagged for a closer look

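In groups of 5 libraries, a library was singled out where its gap to the nearest other exceeded 0.710 of the whole range in its region. For independent normal values chance gives about 1 such group in 20. CPM need not be normal and the groups share libraries, so no excess over chance is read here. The rule was met by 8 of 80 groups (40 genes, 2 regions), 1 of them among the 12 groups of the 6 genes described. SNpc library 4 was the highest of its region in 5 of these. It held 10.8 CPM of Cbln2 (0.573 to 2.58 in the others), 4.54 CPM of C1ql1 (0.841 to 1.34), 79.8 CPM of Nlgn1 (63.6 to 67.6), 33.9 CPM of Nxph1 (12.6 to 17.0) and 8.33 CPM of Grid2ip (0.831 to 2.58). SNpc library 6 held 142 CPM of Neo1 (92.9 to 107 in the others). VTA library 1 held 3.60 CPM of Cbln3 (0.0301 to 0.0880 in the others), and VTA library 4 held 5.63 CPM of C1ql2 (0.783 to 1.24).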

How the results depend on the processing

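Signs of the log2 fold changes held in all 22 alternatives for Cbln1, Cbln2, Cbln4 and Nrxn3, in 21 for Nrxn2 and in 13 for Grid1. Leaving out 1 library at a time gave 0.01 to 0.42 for Cbln1, -2.70 to -1.22 for Cbln2, -2.39 to -2.23 for Cbln4, 0.06 to 0.24 for Nrxn2, 0.37 to 0.50 for Nrxn3 and -0.29 to 0.07 for Grid1. It gave 1 to 1 of the 6 genes passing on the SNpc side and 1 to 2 on the VTA side, 3 to 7 and 6 to 7 related genes, and 2284 to 3317 and 2790 to 3193 of all genes. Without the length and GC trend Nrxn2 stood at 0.70 and Nrxn3 at 0.88 (0.71 and 0.89 with the scale refitted), with 2 of the 6 genes passing on the SNpc side, and 13 related genes were called higher in SNpc and 4 higher in VTA in both versions, against 2172 and 2587 of all genes (2283 and 2551 refitted). Related genes that turned and were past the threshold before or after were then Nlgn1 at 0.46 (0.47 refitted), Nlgn2 at 0.29 (0.29), Nlgn3 at 0.45 (0.45), Lphn1 at 0.32 (0.33), Cask at 0.32 (0.33) and Lin7b at -0.065 (-0.062). With glial markers as a covariate 2 of the 6 genes passed on the VTA side and 3 related genes were called higher in SNpc. All genes then gave 2058 higher in SNpc and 2660 higher in VTA. With glutamatergic and GABAergic markers as a covariate, whose levels differ between the regions, Nrxn2 was -0.058 and Nrxn3 0.30, 0 of the 6 passed on the SNpc side, 1 related gene was called higher in SNpc and 3 higher in VTA, and all genes gave 732 and 1551. The cause was not tested. Replicate numbers 1, 2, 4 and 6 occur in both regions, and deviations of same-numbered libraries had r of 0.08, -0.19, -0.01 and -0.11. With so few pairs these values cannot tell whether same-numbered libraries share animals, which the labels do not state. A replicate block over these 8 libraries gave 1789 genes higher in SNpc and 2543 higher in VTA. With it 3 related genes were called higher in SNpc and 2 of the 6 genes passed on the VTA side. Cbln2 passed there at -2.47 and, with no block in the same libraries, did not, at -1.31. Together with the length and GC correction, the replicate block gave 1588 and 2034 genes, 8 and 4 related genes, 2 of the 6 on the SNpc side, Nrxn2 at 0.78, Nrxn3 at 0.89, Nlgn1 at 0.45, Nlgn3 at 0.59, Lphn1 at 0.34 and Lin7b at -0.058. The same 8 libraries with no block, added after seeing the data, gave 3 related genes higher in SNpc. Of 704 single values of related genes, 582 kept their direction and call. Cbln2, at 36 to 870 reads, is the member with the fewest reads, and the part of depth in its spread was not tested.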
